A study of Mus musculus with 21 samples.

Results

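The 10 CC chemokines Ccl2, Ccl3, Ccl4, Ccl5, Ccl6, Ccl7, Ccl9, Ccl12, Ccl17 and Ccl22 were followed across tumor inflammatory monocytes (TIMs) and bone marrow inflammatory monocytes (BM IMs) of 2 mouse models of lung squamous carcinoma. They were taken by symbol from a count table of 23420 genes, and all 10 were found in each of the 21 libraries. The study asked how the transcriptome of inflammatory monocytes differs between healthy and tumor-bearing mice. LN2E1 TIMs came from FVB mice given 500000 KAL-LN2-E1 cells orthotopically into the lung, with 5 libraries from the primary tumor and 5 from lymph node metastases. LN4K1 TIMs came from lungs of DBA2 mice given 300000 LN4K1 cells intravenously, with 5 libraries. BM IMs came from naïve, healthy FVB mice (3 libraries) and naïve, healthy DBA2 mice (3 libraries).

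The sources name no engineered allele in the host mice and no drug treatment in any group. The methods describe adult male and female mice and give an age range in weeks that is not split by strain. KAL-LN2-E1 and LN4K1 are each a single metastatic line, so strain, tumor line, route of injection and organ changed together between the models and cannot be told apart. Per the labels, monocytes of lungs, tumors and lymph nodes were enriched with a monocyte isolation kit and sorted, and the methods, which name the kit or the sort or both, define inflammatory monocytes as CD45+ CD11b+ Ly6C hi Ly6G-. Siglec-F+ cells, which include alveolar macrophages and eosinophils, were gated out when lung tissue was sorted, and the gating described for tumor samples and healthy marrow also starts from Siglec-F- cells. Lung tissue was digested enzymatically before the sort. No monocytes from healthy lung were among the groups, so tumor, tissue and its digestion cannot be told apart from each other when TIMs are compared with BM IMs. The methods speak of technical replicates, so p-values measure only the spread between these libraries, which may be technical.

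CC chemokines are small secreted proteins that bind G protein-coupled receptors and draw leukocytes along a gradient. Ccl2, Ccl7 and Ccl12 are ligands of Ccr2, the receptor through which Ly6C hi monocytes leave the marrow and enter inflamed tissue. Ccl3, Ccl4 and Ccl5 recruit monocytes and T cells, Ccl6 and Ccl9 are rodent Ccr1 ligands made constitutively by myeloid cells, and Ccl17 and Ccl22 are Ccr4 ligands made largely by dendritic cells and activated macrophages.

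The members sit in clusters. In the mm10 build (GENCODE annotation), Ccl2 (chromosome 11, 82035571 to 82037453, plus strand), Ccl7 (82045712 to 82047525, plus strand) and Ccl12 (82101845 to 82103400, plus strand) lie together on chromosome 11, with 8258 bases between Ccl2 and Ccl7. Ccl5 (83525778 to 83530518, minus strand), Ccl9 (83572919 to 83578636, minus strand), Ccl6 (83587882 to 83593087, minus strand), Ccl3 (83647844 to 83649355, minus strand) and Ccl4 (83662584 to 83664683, plus strand) follow on the same chromosome, with 13228 bases between Ccl3 and Ccl4 and 9245 between Ccl9 and Ccl6. Ccl22 (94745590 to 94751699) and Ccl17 (94810453 to 94812036) are on the plus strand of chromosome 8. No exon of a member overlapped an exon of another gene on either strand. No stretch of 50 bases in a member's transcripts occurred in transcripts of another gene, except in 1.97% of such stretches of Ccl9.

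RefSeq promoter sequences (GRCm38.p6, a C57BL/6J reference and not FVB or DBA2) were at hand for Ccl3, Ccl6, Ccl9, Ccl12, Ccl17 and Ccl22. The 250 bases before the RefSeq start are shown for 4 of them: Ccl3 and Ccl12, which moved in opposite directions in LN2E1 TIMs, and the neighbors Ccl6 and Ccl9, which did not pass the threshold there. They are written 5′ to 3′ on the gene's strand, with capitals for matches on either strand to TGANTCA (AP-1), TTCNNNGAA (a STAT element), GAGGAAG (PU.1), TATAAA (a core promoter element) or the kappaB motif.
Ccl3, chr11:83649379-83649628, minus strand: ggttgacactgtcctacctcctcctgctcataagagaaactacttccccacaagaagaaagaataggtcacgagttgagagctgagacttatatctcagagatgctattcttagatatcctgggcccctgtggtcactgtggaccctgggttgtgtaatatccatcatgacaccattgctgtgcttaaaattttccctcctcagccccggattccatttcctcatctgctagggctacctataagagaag
Ccl12, chr11:82101595-82101844, plus strand: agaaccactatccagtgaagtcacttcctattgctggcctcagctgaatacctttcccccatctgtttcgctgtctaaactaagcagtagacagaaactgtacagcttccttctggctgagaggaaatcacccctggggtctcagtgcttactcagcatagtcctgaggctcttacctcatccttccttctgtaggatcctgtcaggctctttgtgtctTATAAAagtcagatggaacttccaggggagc
Ccl6, chr11:83593088-83593337, minus strand: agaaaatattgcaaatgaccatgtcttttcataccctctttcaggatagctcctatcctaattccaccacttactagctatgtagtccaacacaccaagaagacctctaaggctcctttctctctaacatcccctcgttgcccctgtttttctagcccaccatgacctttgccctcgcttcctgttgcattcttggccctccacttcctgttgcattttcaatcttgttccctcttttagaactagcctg
Ccl9, chr11:83578637-83578886, minus strand: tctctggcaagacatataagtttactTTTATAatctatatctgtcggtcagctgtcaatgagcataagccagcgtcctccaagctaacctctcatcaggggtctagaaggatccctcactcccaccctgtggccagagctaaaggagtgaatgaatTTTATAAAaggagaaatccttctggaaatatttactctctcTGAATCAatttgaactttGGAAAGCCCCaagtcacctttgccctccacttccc
The Ccl12 window held TATAAA starting at position -31 from the RefSeq start. The Ccl9 window held 3 TATAAA matches, 2 of which overlap, an AP-1 match at -53 and a kappaB match at -35. The Ccl3, Ccl6 and Ccl22 windows held none of the 5, and the Ccl17 window held 1 match, to TTCNNNGAA at -99. Among 32851 promoter windows of the same length, TATAAA occurred in 12.4%, GAGGAAG in 10.6%, TTCNNNGAA in 7.02%, TGANTCA in 6.75% and the kappaB motif in 3.90%. A match is a description of these letters and not a measured site.

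Libraries held 80772922 to 101043568 counts, and 3 counts, the floor used for a gene at or near 0, corresponded to 0.0268 to 0.0405 CPM. Levels are CPM, counts per 1e6 counts of the library, normalized by the trimmed mean of M values (TMM). All 8 monocyte markers on the list checked were detected in every group, with a summed level from 41254 to 126528 CPM. LN4K1 lung TIM replicate 3 and LN2E1 lymph node TIM replicate 1 stood apart from their groups, with a median correlation of 0.905 and 0.890 with the other libraries of the group, against at least 0.961 in all other libraries. Without these libraries, 6 members still changed against marrow in lymph node TIMs and 10 in lung TIMs, as with them. Over all tested genes, 3118 rose and 2922 fell of 13201 without the lymph node library, against 2685 and 2284 of 13273 with it. Without the lung library 2744 rose and 2292 fell of 13592, against 1892 and 1497 of 13624 with it. Summed eosinophil markers reached 636 to 1182 CPM in FVB and 444 to 1129 CPM in DBA2 BM IMs against 5.51 to 73.9 CPM in TIMs. Summed fibroblast and endothelial markers reached 323 to 859 CPM in primary tumor TIMs against 3.95 to 13.4 CPM in BM IMs. Summed squamous and lung epithelial markers were 0.433 to 1.58 CPM in BM IMs, 125 to 707 CPM in primary tumor, 0.808 to 4.68 CPM in lymph node and 6.51 to 90.9 CPM in lung TIMs. Summed macrophage markers were 1848 to 2088 CPM in FVB marrow, 1369.9 to 2555 CPM in DBA2 marrow, 3043 to 3863 CPM in TIMs of the primary tumor, 3157 to 4754 CPM in those of lymph nodes and 4672 to 6365 CPM in those of the lung, with 4, 3 and 3 of 8 markers higher in these TIM groups and 0, 0 and 1 lower. The part of these cell types in the members' levels was not tested. In these bulk libraries, fewer cells of a type and less RNA per cell cannot be told apart.

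Per kilobase of exon, the order of the members' levels differed between marrow and tumor. Ccl6 had the highest mean of the members in every group, from 574 ± 84.2 CPM per kb in DBA2 BM IMs to 1397 ± 365 in LN4K1 lung TIMs (mean ± SD, n = 3 and n = 5). Ccl3 was second in both marrow groups, at 397 ± 138 and 282 ± 63.6 CPM per kb in FVB and DBA2. Ccl4 was second in primary tumor and lung TIMs, at 597 ± 69.1 and 1337 ± 538 CPM per kb. In lung TIMs its mean lay within its SD of that of Ccl6, so the order of these members is not settled there. Ccl2 was second in lymph node TIMs, at 463 ± 239.7, within its SD of Ccl4 at 432 ± 76.9. Ccl7, Ccl12, Ccl17 and Ccl22 each averaged under 1 CPM per kb in marrow. The 10 members together took 0.212% to 0.341% of all counts in BM IM libraries and 0.254% to 0.668% in TIM libraries. Ccl6 and Ccl9 alone made up 74.0% to 89.4% of the members' counts in marrow and 61.2% to 77.2% in TIMs.

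**Figure D1:**
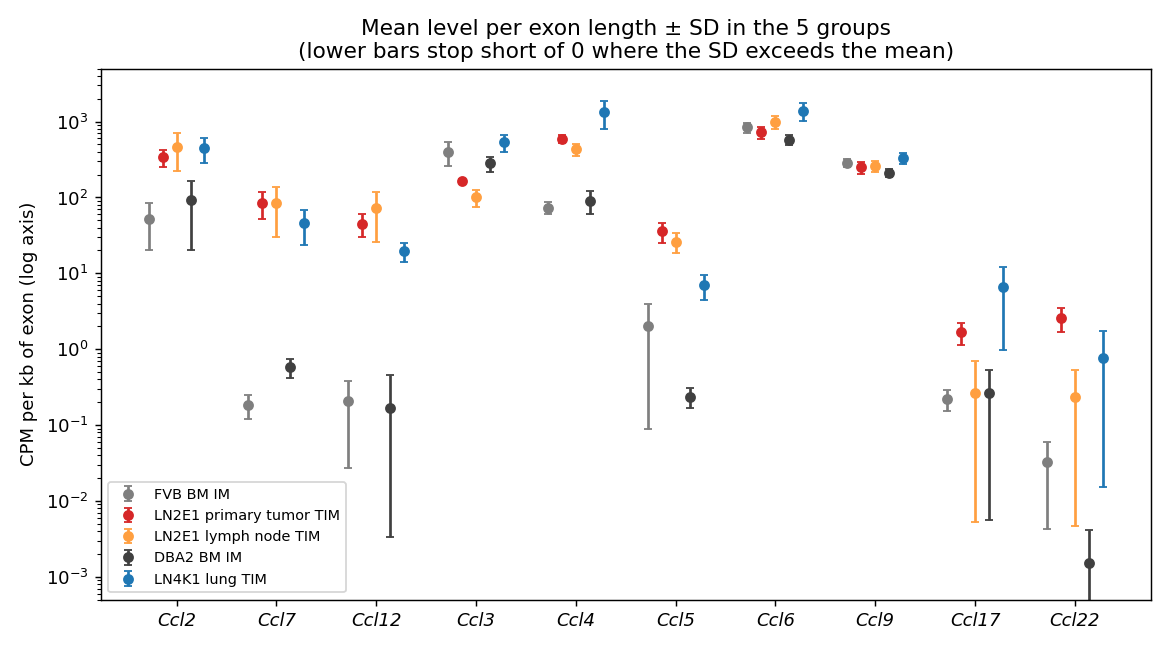
Mean level ± SD of the 10 CC chemokines in CPM per kilobase of exon (log axis) in the 5 groups (n = 3 for each BM IM group and n = 5 for each TIM group). Ccl6 has the highest mean in each group, with Ccl4 within its SD of Ccl6 in LN4K1 lung TIMs. Means of Ccl7 and Ccl12 are under 1 CPM per kb in marrow and at 19.7 or more in TIMs.

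TIMs were compared with the BM IMs of their own strain. In primary tumor TIMs, 7 of 10 members rose and 1 fell at an adjusted p under 0.05 (edgeR quasi-likelihood test, Benjamini-Hochberg adjusted across all tested genes), where 33.3% of all tested genes rose and 28.6% fell. In lymph node TIMs 5 rose, 1 fell and 4 did not pass, where 20.2% of tested genes rose and 17.2% fell, and in LN4K1 lung TIMs all 10 rose, where 13.9% of tested genes rose and 11% fell. The median log2 fold change of the members was 2.96, 2.70 and 4.16 in these comparisons, beside 0.08, -0.04 and 0.03 over all tested genes. All 10 members passed the filter on low counts in each comparison, but Ccl12, Ccl17 and Ccl22 had fewer than 10 counts in at least 1 BM library of each strain. They passed through the TIM libraries, with an exception in lymph node TIMs. There Ccl17 (0, 0, 43, 0 and 14 counts) and Ccl22 (0, 7, 116, 0 and 105 counts) passed only together with FVB libraries. The 7 members with at least 10 counts in every library were higher in 4, 4 and 7 cases and lower in 1, 1 and 0. The primary tumor and lymph node comparisons share the 3 FVB BM IM libraries. Leaving out 1 library gave 7 to 10 members that rose in lung TIMs. Over all tested genes, 1117 to 2744 rose and 1015 to 2292 fell in these lung fits, against 1892 and 1497 with all libraries.

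At the study's thresholds for differentially expressed genes (DEGs; more than 1 log2 unit in either direction at an adjusted p below 0.0001), fewer members remained. Ccl4, Ccl7 and Ccl12 were DEGs in primary tumor TIMs, Ccl4 and Ccl7 in lymph node TIMs, and Ccl4, Ccl5 and Ccl7 in lung TIMs, all of them higher. Among all tested genes, 7.72%, 4.01% and 1.21% were DEGs that rose in these comparisons and 5.18%, 1.7% and 1.76% were DEGs that fell. The counts of member DEGs depended on the test, and so did those over all genes: DESeq2 gave 8, 6 and 7 members. Without shrinkage, DESeq2 had 2807 of 15982 tested genes as DEGs that rose and 1218 that fell in primary tumor TIMs. In lymph node TIMs it had 1577 and 833 of 14055, and in lung TIMs 894 and 708 of 14712. Leaving out 1 library gave 3 member DEGs in primary tumor TIMs, 1 to 3 in lymph node TIMs and 0 to 3 in lung TIMs. The member count was 1 in lymph node TIMs without any 1 of the FVB BM IM libraries or without lymph node TIM replicate 2. In these fits 225 to 337 genes were DEGs that rose and 82 to 121 DEGs that fell, against 532 and 226 with all libraries. In lung TIMs the member count was 1 without DBA2 BM IM replicate 1. It was 0 without DBA2 BM IM replicate 2 or 3 or without lung TIM replicate 1, 4 or 5. In these lung fits 25 to 95 genes were DEGs that rose and 90 to 153 DEGs that fell, against 165 and 240.

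**Figure D2:**
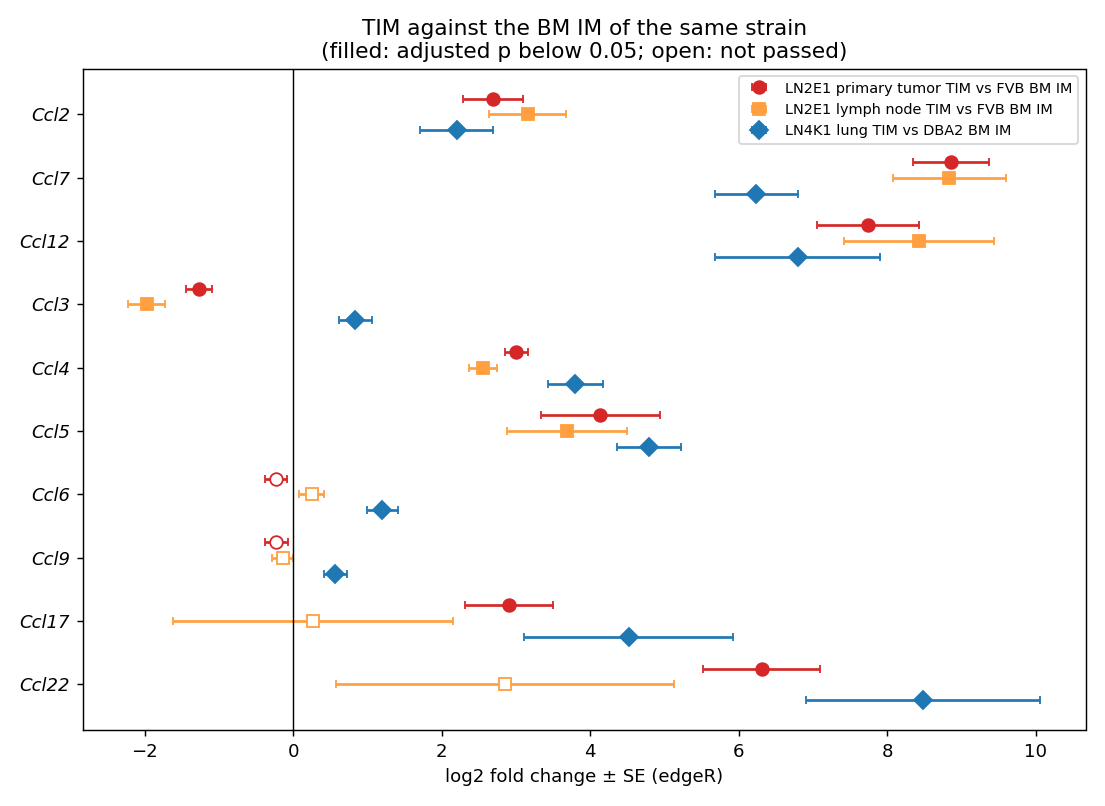
Log2 fold change ± SE (edgeR) of each CC chemokine in the 3 TIM groups against BM IMs of the same strain, filled where the adjusted p was under 0.05. Ccl7 and Ccl12 lie farthest to the right in both LN2E1 groups, Ccl3 lies left of 0 in the LN2E1 groups and right of 0 in LN4K1 lung TIMs, and Ccl6 and Ccl9 lie near 0 in the LN2E1 groups.

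The Ccr2 ligands rose in all 3 TIM groups. Ccl7, which recruits monocytes, was nearly silent in marrow, with 0.205, 0.112 and 0.125 CPM in the 3 FVB libraries and 0.411, 0.369 and 0.612 CPM in the 3 DBA2 libraries. It reached 34.2, 58.2, 107, 77.2 and 66.2 CPM in TIMs of the primary tumor, 129.95, 88.8, 24.8, 34.8 and 57 CPM in lymph node TIMs and 25.1, 15.1, 58.4, 34.4 and 52.6 CPM in lung TIMs. Every TIM library was above every BM library, and the 2 libraries that stood apart were the highest of their groups. The mean was 466-fold higher in primary tumor TIMs, 455-fold in lymph node TIMs and 80-fold in lung TIMs. The log2 fold changes were 8.85 ± 0.51 (SE; edgeR adjusted p = 1.01e-06), 8.83 ± 0.76 (adjusted p = 1.76e-05) and 6.24 ± 0.55 (adjusted p = 4.47e-05).

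Ccl12, the neighbor of Ccl7 and a mouse Ccr2 ligand, was at 0.17, 0 and 0.161 CPM in FVB and 0.267, 0 and 0 CPM in DBA2 BM IMs, which rested on 0 to 26 counts. It was at 19.5, 20.6, 38.5, 21.2 and 21.2 CPM in TIMs of the primary tumor, 77.3, 44.8, 12.9, 29.1 and 28.2 CPM in lymph node TIMs and 10.6, 6.73, 15.3, 10.4 and 9.88 CPM in lung TIMs. All TIM libraries exceeded all BM libraries, by log2 fold changes of 7.74 ± 0.68 (edgeR adjusted p = 1.35e-05), 8.42 ± 1.01 (adjusted p = 0.000141) and 6.80 ± 1.11 (adjusted p = 0.00185). The lung value rests on DBA2 BM IM replicate 1, the only DBA2 library with counts of Ccl12, and was 12.89 without it, 6.21 without DBA2 BM IM replicate 2 and 1.84 in DESeq2 with shrinkage, past the threshold each time. With DBA2 BM IM replicate 1 left out, both remaining DBA2 libraries are at 0 and the fitted value is no bound.

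Ccl2, the main ligand of Ccr2, was already present in marrow, unlike Ccl7 and Ccl12. Its level was 99.5, 29.7 and 48.1 CPM in FVB and 58.7, 56.4 and 198 CPM in DBA2 BM IMs, so replicates of one group differed more than 3-fold. It was 259, 387, 525, 402 and 355 CPM in TIMs of the primary tumor, 981, 549, 298, 340.2 and 467 CPM in lymph node TIMs and 378, 307, 726, 471 and 657 CPM in lung TIMs. The groups of each comparison did not overlap, and Ccl2 rose by a log2 fold change of 2.69 ± 0.40 (edgeR adjusted p = 0.000372), 3.16 ± 0.52 (adjusted p = 0.00104) and 2.20 ± 0.49 (adjusted p = 0.00987). Without FVB BM IM replicate 1 the first 2 values were 3.31 and 3.75, and without DBA2 BM IM replicate 3 the last was 3.06. The 3 TIM groups overlapped each other. Fibroblasts and endothelium also make Ccl2 and Ccl7, and all 6 of their markers on the list rose in primary tumor TIMs. The sort gate required CD45, which fibroblasts and endothelium lack, and all 6 markers were detected in each TIM group. Of those tested, 5 of 5 rose in lymph node and 3 of 5 in lung TIMs, and 0 fell. Their summed level was 323 to 859 CPM in primary tumor and 56.3 to 131 CPM in lymph node TIMs, against 3.95 to 5.87 CPM in FVB BM IMs. In lung TIMs it was 4.46 to 43.1 CPM, against 9.09 to 13.4 CPM in DBA2 BM IMs. The part of fibroblasts and endothelium in the levels of the Ccr2 ligands was not tested.

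**Figure D3:**
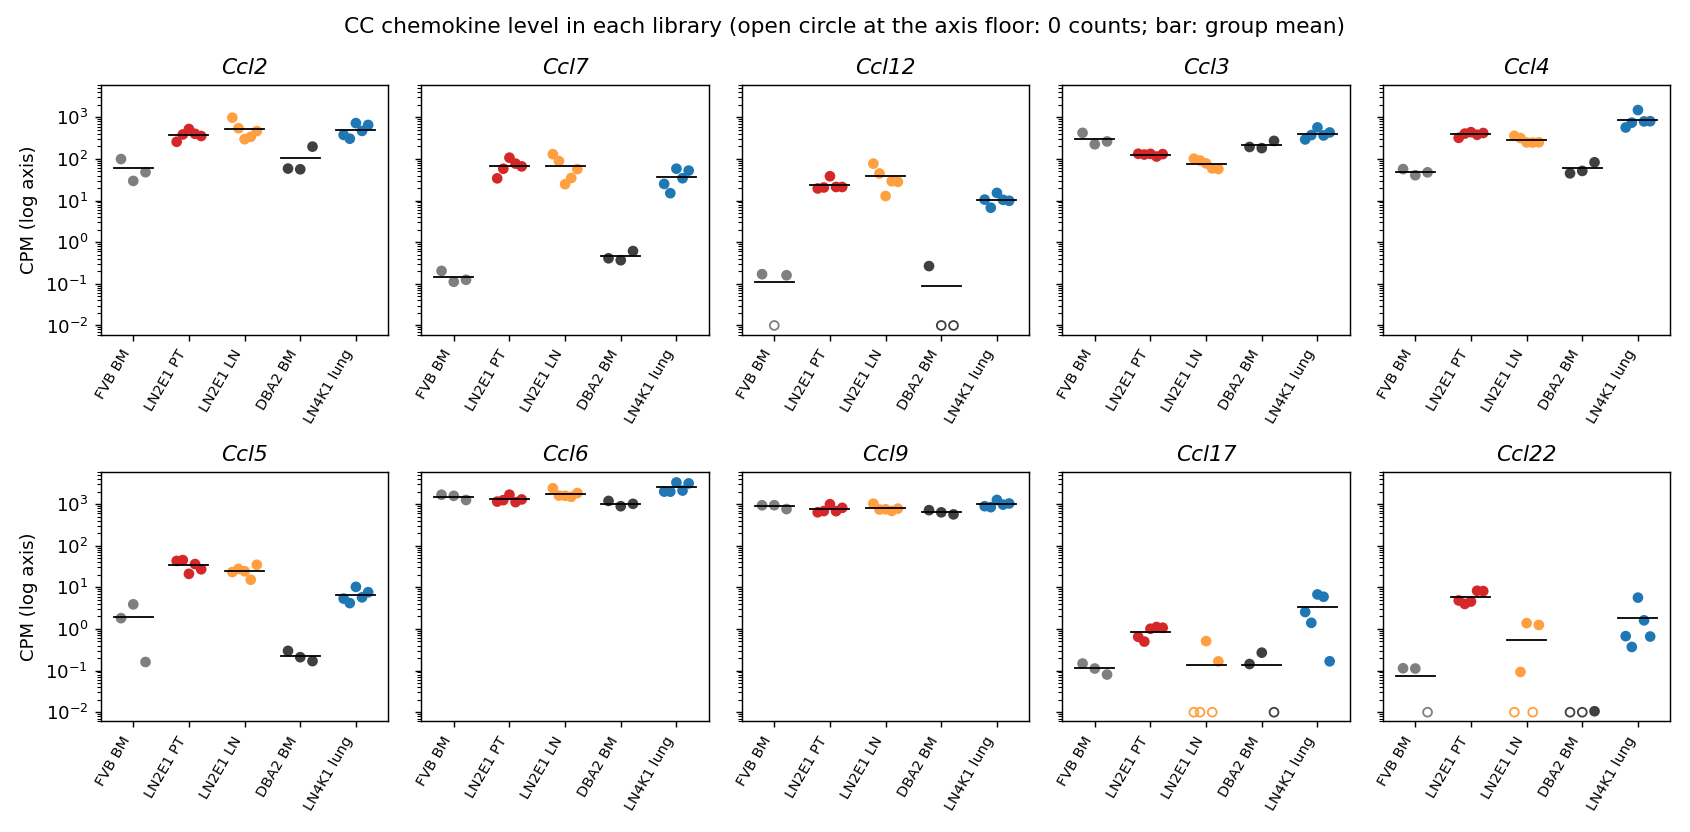
Level of each CC chemokine in all 21 libraries, in CPM on a log axis, by group (PT, primary tumor; LN, lymph node), with a bar at the group mean and open circles at the axis floor for libraries with 0 counts. Ccl7 and Ccl12 stay under 1 CPM in each BM library and at 6.73 or more in each TIM library, whereas Ccl6 and Ccl9 stay within 565 to 3301 CPM throughout.

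Ccl3 and Ccl4, which lie side by side on chromosome 11, moved apart in the LN2E1 model. Ccl4 was at 57.1, 40.6 and 47.7 CPM in FVB and 45.1, 51.6 and 83.1 CPM in DBA2 BM IMs. It rose to 322, 406, 439.9, 381 and 419.7 CPM in TIMs of the primary tumor, 359, 317, 249.7, 248 and 251 CPM in lymph node TIMs and 570.0, 745, 1495, 797 and 806 CPM in lung TIMs. No TIM library overlapped a BM library, and the log2 fold changes were 3.00 ± 0.15 (edgeR adjusted p = 4.87e-07), 2.56 ± 0.19 (adjusted p = 6.57e-06) and 3.80 ± 0.38 (adjusted p = 8.54e-05). Ccl4 and Ccl7 were the members that were DEGs in all 3 comparisons.

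Ccl3 was at 424, 225 and 263 CPM in FVB BM IMs and lower in every LN2E1 TIM library, at 133, 128, 132, 114 and 131 CPM in the primary tumor and 101, 92, 77.9, 59.2 and 57.5 CPM in lymph nodes. The mean was 2.38-fold lower in primary tumor TIMs and 3.92-fold lower in lymph node TIMs, with log2 fold changes of -1.27 ± 0.17 (edgeR adjusted p = 0.00018) and -1.97 ± 0.25 (adjusted p = 0.000195). It was the only member that fell in either comparison. Neutrophil markers were lower in the same comparisons, 5 and 6 of 8 falling while 2 and 1 rose, with summed levels of 3673 to 4689.5 CPM in FVB marrow, 659 to 1435 CPM in TIMs of the primary tumor and 296 to 764 CPM in those of lymph nodes, and their part in the Ccl3 level was not tested. In DBA2 BM IMs Ccl3 was at 194, 182 and 272 CPM and in lung TIMs at 294, 375, 573, 367 and 433 CPM, all above the DBA2 libraries. Summed neutrophil markers were 1152 to 1693 CPM in DBA2 marrow and 942 to 1907 CPM in lung TIMs, with 5 of 8 lower and 1 higher. The rise of Ccl3, 0.84 ± 0.22 on the log2 scale (edgeR adjusted p = 0.0237), was no longer past 0.05 without DBA2 BM IM replicate 1 (adjusted p = 0.0954), without DBA2 BM IM replicate 2 (0.106) or without lung TIM replicate 5 (0.0503).

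The ratio of Ccl4 to Ccl3 counts, which needs no scaling between libraries, separated marrow from tumor in both models. It was 0.135, 0.181 and 0.181 in FVB BM IMs and 0.233, 0.283 and 0.306 in DBA2 BM IMs. It was 2.41, 3.18, 3.32, 3.34 and 3.21 in TIMs of the primary tumor, 3.55, 3.45, 3.21, 4.19 and 4.37 in lymph node TIMs and 1.94, 1.99, 2.61, 2.17 and 1.86 in lung TIMs. The lowest TIM library, at 1.86, thus lay above the highest BM library, at 0.306. The ratio of Ccl7 to Ccl2 counts behaved alike, at 0.00206 to 0.00699 in the 6 BM libraries and 0.0491 to 0.205 in the 15 TIM libraries. Both genes of the first pair respond to stimulation in monocytes, and immediate early and heat shock genes, a sign of handling as well as of activation, summed to 12535 to 14236 CPM in primary tumor, 6262 to 8938 CPM in lymph node and 15210.1 to 25671 CPM in lung TIMs against 7803 to 11528 CPM in FVB and 11073 to 20018 CPM in DBA2 BM IMs. Of these 10 genes, 7 rose and 1 fell in primary tumor TIMs and 5 rose and 2 fell in lymph node TIMs against marrow. In lung TIMs 3 rose and 0 fell. The part of these genes in the levels of Ccl3 and Ccl4 was not tested.

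**Figure D4:**
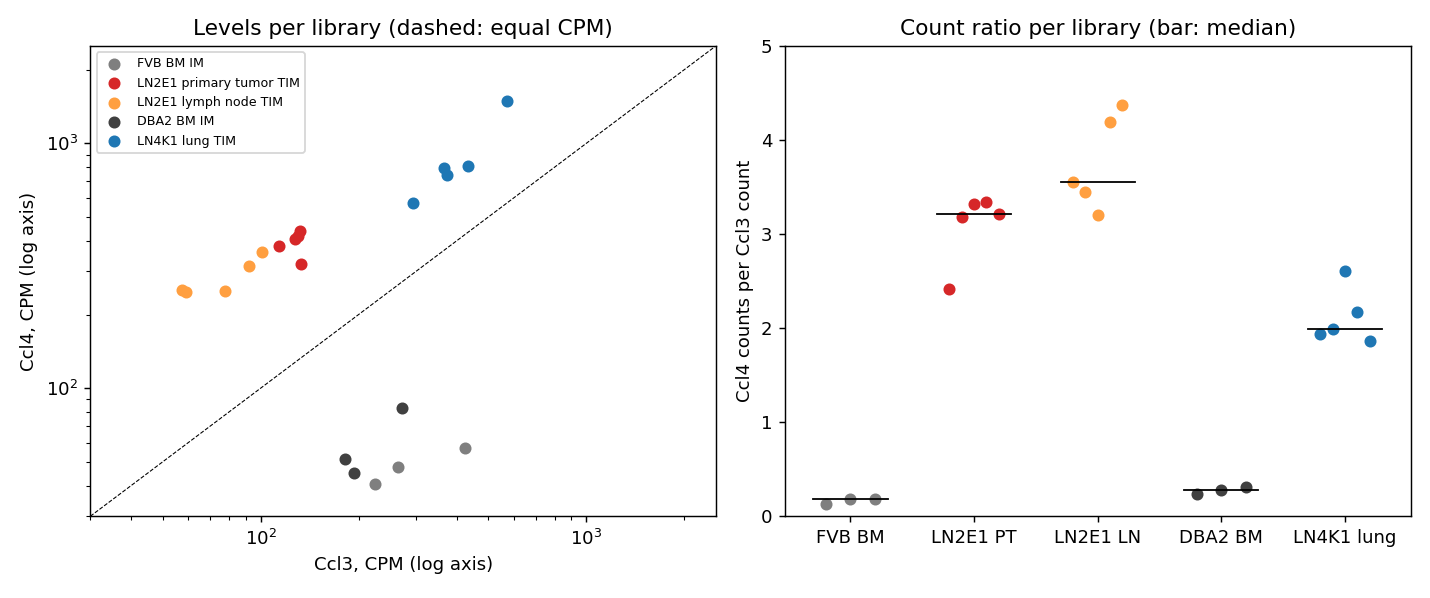
Left, Ccl4 against Ccl3 in each library, in CPM on log axes, with a dashed line at equal levels. Right, counts of Ccl4 per count of Ccl3 in each library with a bar at the group median. The 6 BM libraries lie at or under 0.306 and the 15 TIM libraries at or above 1.86.

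Ccl5, which binds Ccr1 and Ccr3 and is made by T cells and NK cells as well as myeloid cells, rose in all 3 TIM groups from a low marrow level. FVB BM IMs were uneven, at 1.82, 3.9 and 0.161 CPM, and DBA2 BM IMs were at 0.298, 0.21 and 0.169 CPM. It was at 43.1, 45.1, 21.1, 36.2 and 27.1 CPM in TIMs of the primary tumor, 23.3, 27.6, 24.4, 15.2 and 34.8 CPM in lymph node TIMs and 5.36, 4.18, 10.3, 5.74 and 7.64 CPM in lung TIMs, with no overlap between TIM and BM libraries of one strain. The log2 fold changes were 4.13 ± 0.80 (edgeR adjusted p = 0.00176), 3.69 ± 0.81 (adjusted p = 0.00565) and 4.79 ± 0.43 (adjusted p = 4.7e-05). Without FVB BM IM replicate 2, the highest of its group, the first 2 were 5.15 and 4.67. Lymphocyte markers moved with it in part. Of 7 NK cell markers tested in lung TIMs 5 rose, with a summed level of 16 to 32.1 CPM against 2.7 to 6.25 CPM in DBA2 BM IMs, where Ncr1, Klrb1c, Gzma, Prf1 and Eomes were at 3 counts or fewer. In FVB BM IMs, where Ccl5 was lower than in LN2E1 TIMs, the NK cell sum was higher, at 25.2 to 29.7 CPM against 6.2 to 12.3 CPM in primary tumor and 6.07 to 23.4 CPM in lymph node TIMs. By marker, 2 of 7 tested rose and 1 fell in primary tumor TIMs, and 0 of 5 rose and 1 fell in lymph node TIMs. Summed T cell markers were 2.69 to 2.73 CPM in FVB and 0.918 to 2 CPM in DBA2 BM IMs. They were 7.48 to 13.4 CPM in primary tumor, 6.24 to 16.7 CPM in lymph node and 9.23 to 26.1 CPM in lung TIMs. Of those tested, 3 of 7 rose in primary tumor, 1 of 6 in lymph node and 4 of 6 in lung TIMs, and 0 fell. The part of NK cells and T cells in the Ccl5 level was not tested.

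Ccl6 and Ccl9, on average the members with the most counts, did not pass the threshold in the LN2E1 model. Ccl6 ranged over 1255 to 1677 CPM in FVB BM IMs, 1115 to 1682 in primary tumor and 1499 to 2395 in lymph node TIMs, and these ranges overlapped. Its log2 fold changes were -0.23 ± 0.15 (edgeR adjusted p = 0.204) and 0.25 ± 0.17 (adjusted p = 0.301). Ccl9 ranged over 759 to 940.4, 635 to 992 and 684 to 1023 CPM in the same groups, with log2 fold changes of -0.23 ± 0.15 (adjusted p = 0.222) and -0.14 ± 0.15 (adjusted p = 0.496). Without primary tumor TIM replicate 3, the highest of its group in both genes, both were lower than in FVB BM IMs, by log2 fold changes of -0.35 (adjusted p = 0.0194) and -0.35 (adjusted p = 0.022).

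In the LN4K1 model Ccl6 and Ccl9 rose. Ccl6 was at 1993, 1987, 3301, 2113 and 3141 CPM in lung TIMs against 1189, 888 and 1013 CPM in DBA2 marrow, with no overlap and a log2 fold change of 1.20 ± 0.21 (edgeR adjusted p = 0.00308). Ccl9 was at 888, 843, 1258, 970.1 and 1032 CPM against 715, 633 and 565 CPM, also with no overlap and a log2 fold change of 0.57 ± 0.15 (adjusted p = 0.0225). The Ccl9 rise was not past the threshold without DBA2 BM IM replicate 2 (adjusted p = 0.0852) or replicate 3 (0.106), or with replicate number added to the fit (0.196).

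The Ccr4 ligands were the members with the lowest mean levels in TIMs. Ccl22 rested on 10, 11 and 0 counts in FVB BM IMs and 0, 0 and 1 counts in DBA2 BM IMs. It was at 4.84, 3.99, 4.56, 8.26 and 8.12 CPM in primary tumor TIMs, all above the FVB libraries, and rose by a log2 fold change of 6.31 ± 0.79 (edgeR adjusted p = 0.000105), or 5.70 without FVB BM IM replicate 3, which had no counts. In lymph node TIMs Ccl22 was at 0, 0.0927, 1.38, 0 and 1.25 CPM, so 2 libraries had none and the ranges overlapped, with a log2 fold change of 2.85 ± 2.28 (adjusted p = 0.37). In lung TIMs it was at 0.673, 0.369, 5.66, 1.61 and 0.658 CPM, and the mean was at least 58.3-fold higher than in DBA2 BM IMs when those are set to the floor of 3 counts per library (edgeR adjusted p = 0.00385). The highest lung library was replicate 3, one of the 2 that stood apart, and without it, an alternative chosen after seeing the data, the mean was still at least 26.9-fold higher. Its summed dendritic cell markers were also the highest of the group, at 402 CPM against 132 to 225 CPM in the other 4, and their part in the Ccl22 level was not tested.

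Ccl17 was at 0.148, 0.112 and 0.0804 CPM in FVB and 0.144, 0.269 and 0 CPM in DBA2 BM IMs. It was higher in each primary tumor TIM library, at 0.646, 0.497, 1.01, 1.12 and 1.07 CPM, a rise of 2.91 ± 0.59 on the log2 scale (edgeR adjusted p = 0.00206). This rise did not pass when all 5 groups were fitted together (adjusted p = 0.128) or with replicate number added to the fit (0.058). Lymph node TIMs had it in 2 of 5 libraries, at 0, 0, 0.511, 0 and 0.166 CPM, with a log2 fold change of 0.26 ± 1.89 (adjusted p = 0.933). Lung TIMs spread from 0.167 to 6.75 CPM, at 2.55, 1.4, 6.75, 5.94 and 0.167, and replicate 5 lay within the DBA2 range. The lung rise, 4.52 ± 1.41 (adjusted p = 0.0431), was lost on leaving out any 1 of the 3 DBA2 BM IM libraries or lung TIM replicate 1, 2 or 4, with adjusted p from 0.0506 to 0.126. It was also lost when all 5 groups were fitted together (adjusted p = 0.0518) and with replicate number added to the fit (0.173). Of 8 dendritic cell markers, 6 rose in primary tumor TIMs, 4 in lymph node TIMs and 2 in lung TIMs, where 1 fell.

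Within the LN2E1 model, lymph node TIMs differed from primary tumor TIMs in few members. Ccl3 was lower in lymph nodes, by a log2 fold change of -0.71 ± 0.15 (edgeR adjusted p = 0.0134), and the 5 lymph node libraries given above all lay under the 5 primary tumor libraries. Ccl4 was lower too, at -0.46 ± 0.13 (adjusted p = 0.0411), with overlapping ranges, and lost its call without any 1 of 8 of the 10 libraries, the exceptions being replicate 1 of either group. The Ccl4 call was also lost when all 5 groups were fitted together (adjusted p = 0.145) and with replicate number added to the fit (0.130). The other 8 members did not pass, and no member rose, where 6.15% of tested genes rose and 5.55% fell. Ccl17 and Ccl22 had log2 fold changes of -2.66 ± 1.41 (adjusted p = 0.263) and -3.44 ± 1.28 (adjusted p = 0.111), with 3 and 2 lymph node libraries at 0. Ccl22 passed in DESeq2 (adjusted p = 0.0179), and so did a rise of Ccl6 (0.0359). For Ccl7 and Ccl9 the differences were -0.02 ± 0.43 and 0.08 ± 0.14, which bounds any difference in Ccl9 more narrowly than in Ccl7.

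Between tumors of the 2 models, LN4K1 lung TIMs had more Ccl3, Ccl4 and Ccl6 and less Ccl5 and Ccl12 than LN2E1 primary tumor TIMs. Of the 10 members 3 were higher and 2 lower, where 21.5% of tested genes were higher and 20.4% lower. Ccl3 differed by 1.66 ± 0.16 on the log2 scale (edgeR adjusted p = 2.21e-05), Ccl4 by 1.14 ± 0.22 (adjusted p = 0.00217) and Ccl6 by 0.93 ± 0.18 (adjusted p = 0.00199). Ccl5 differed by -2.40 ± 0.28 (adjusted p = 9.03e-05) and Ccl12 by -1.22 ± 0.25 (adjusted p = 0.00277), the latter not past 0.05 when all 5 groups were fitted together (0.109). The ranges of each of these 5 did not overlap, which is no separate support, since they were called on the same libraries. The share of all genes without overlap was not counted. Ccl22 missed the threshold at -1.75 ± 0.67 (adjusted p = 0.0562) and was lower in lung TIMs without lung TIM replicate 3, at -2.87 (adjusted p = 0.000404). Strain, line, route and organ cannot be told apart in this comparison.

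Between the marrow of the 2 strains few members passed. In DBA2 against FVB BM IMs, 9 of 10 members were tested, since Ccl22 had too few counts, and 2 were lower, where 11.5% of tested genes were higher and 9.57% lower. Ccl6 was lower, with a log2 fold change of -0.52 ± 0.14 (edgeR adjusted p = 0.0337) and so was Ccl9, with one of -0.44 ± 0.12 (adjusted p = 0.0348), and both calls were lost without FVB replicate 1 or 2 or DBA2 replicate 2 or 3, with adjusted p from 0.101 to 0.134. Both were also lost when all 5 groups were fitted together (adjusted p = 0.125 and 0.115). Ccl5 was at -3.07 ± 0.98 (adjusted p = 0.0579) and passed without FVB BM IM replicate 3 (adjusted p = 0.00238) and in DESeq2 (0.00459). Ccl7 had a log2 fold change of 1.68 ± 0.76 (adjusted p = 0.151), although its 3 DBA2 libraries all lay above its 3 FVB libraries.

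The test of the difference between the models' changes, the change in LN2E1 primary tumor TIMs minus the change in LN4K1 lung TIMs, passed for 4 of 10 members, 1 positive and 3 negative, where 13.2% of tested genes were positive and 13.3% negative. Ccl7 rose more in the LN2E1 model, by 2.64 ± 0.66 on the log2 scale (edgeR adjusted p = 0.00965). Ccl3 differed by -2.09 ± 0.30 (adjusted p = 0.000369), having fallen in one model and risen in the other. Ccl6 differed by -1.41 ± 0.26 (adjusted p = 0.00184) and Ccl9 by -0.78 ± 0.22 (adjusted p = 0.0172), and the Ccl9 call was lost without FVB BM IM replicate 2 (adjusted p = 0.0501) or DBA2 BM IM replicate 3 (0.0539). For Ccl2, Ccl5 and Ccl12 the differences were 0.51 ± 0.61, -0.64 ± 0.85 and 0.97 ± 1.19 and did not pass, which does not show that the models changed alike.

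**Figure D5:**
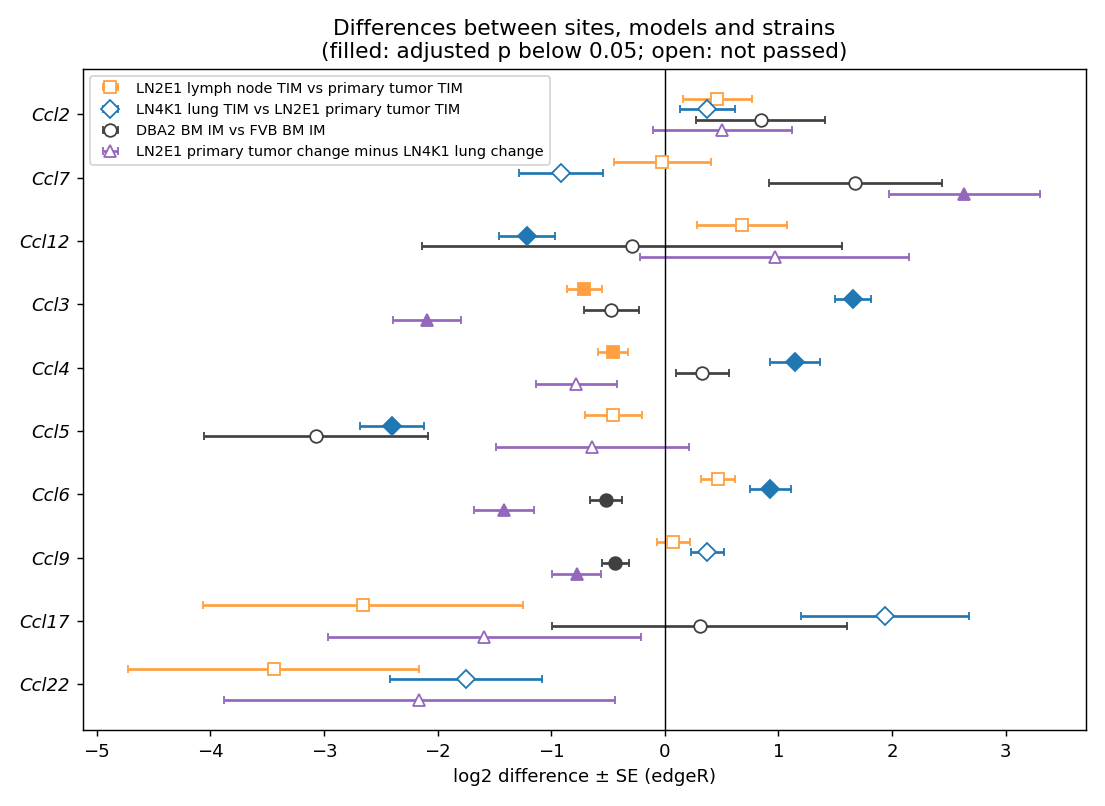
Log2 differences ± SE (edgeR) of each CC chemokine between sites, models and strains, filled where the adjusted p was under 0.05. Ccl3 lies right of 0 for LN4K1 lung against LN2E1 primary tumor TIMs and left of 0 for the difference between the models' changes.

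Receptors for CC chemokines were followed over 13 genes. In primary tumor TIMs 5 of the 10 tested rose and 2 fell, in lymph node TIMs 4 of 9 rose, and in lung TIMs 3 of 9 rose, beside 33.3% and 28.6%, 20.2%, and 13.9% of all tested genes. Ccr1, which binds Ccl3, Ccl5, Ccl6, Ccl7 and Ccl9, rose in all 3 groups on the log2 scale, by 2.22 ± 0.18 (SE; edgeR adjusted p = 7.16e-06), 1.86 ± 0.21 (adjusted p = 9.3e-05) and 1.86 ± 0.12 (adjusted p = 6.69e-06).

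Ccr2, the receptor of Ccl2, Ccl7 and Ccl12 and a marker of these monocytes, was abundant in each group, at 714 ± 16.4 CPM in FVB and 1299.5 ± 69.6 CPM in DBA2 BM IMs. It rose in primary tumor TIMs, by 0.65 ± 0.11 on the log2 scale (edgeR adjusted p = 0.000627), and in lung TIMs, by 0.96 ± 0.11 (adjusted p = 0.000269), and was at 0.38 ± 0.14 (adjusted p = 0.0568) in lymph node TIMs. Ackr1, a decoy receptor, averaged 0.728 ± 0.168 CPM in FVB BM IMs and fell in primary tumor TIMs, with a log2 fold change of -4.21 ± 1.09 (adjusted p = 0.00756); it was named after its values were seen. Ccr4, the receptor of Ccl17 and Ccl22, was at or under 0.0499 CPM in every library, and Ccr8, which was also too low to test, was at or under 0.152 CPM. Ccr3 fell in primary tumor TIMs, with a log2 fold change of -1.13 ± 0.31 (adjusted p = 0.0106), and is on the eosinophil marker list, whose summed level was lower in all TIM libraries. Ccr7, which guides dendritic cells to lymph nodes, rose by 7.27 ± 0.77 (adjusted p = 4.87e-05) in primary tumor and 5.44 ± 1.29 (adjusted p = 0.00825) in lymph node TIMs, and is on the dendritic cell list. Ccr9 rose in all 3 groups, by 6.32 ± 0.77 (adjusted p = 0.000107), 7.42 ± 1.12 (adjusted p = 0.000627) and 3.54 ± 1.05 (adjusted p = 0.0359), and the receptor-like gene Ccrl2 rose by 0.45 ± 0.11 (adjusted p = 0.00436) and 0.49 ± 0.13 (adjusted p = 0.0129) in the LN2E1 groups.

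Of 11 other CC chemokines, 5 were high enough to test in primary tumor TIMs, where 3 rose and 1 fell, and 4 in each other group, where none passed in lymph node TIMs and 1 rose and 1 fell in lung TIMs, beside 33.3% higher and 28.6% lower in primary tumor TIMs and 13.9% higher and 11% lower in lung TIMs over all tested genes. Ccl8 averaged 10.4 ± 2.7 CPM in primary tumor TIMs against 0.569 ± 0.0221 in FVB marrow, a rise of 4.17 ± 0.30 on the log2 scale (edgeR adjusted p = 2.86e-06). Ccl24, a Ccr3 ligand that attracts eosinophils, rose in primary tumor TIMs by 3.71 ± 0.78 (adjusted p = 0.00262) and in lung TIMs by 5.97 ± 0.62 (adjusted p = 0.000122), where it averaged 24.8 ± 7.22 CPM against 0.375 ± 0.299 in DBA2 marrow. Ccl11, also a Ccr3 ligand and likewise named after its values were seen, was at 0 in each FVB BM IM library and at 0.314 to 2.05 CPM in primary tumor TIMs (adjusted p = 0.000667). Ccl25 fell in primary tumor TIMs, with a log2 fold change of -0.73 ± 0.20 (adjusted p = 0.0116), and Ccl27a in lung TIMs, with one of -1.14 ± 0.36 (adjusted p = 0.0449).

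The genes whose pattern was most like each member over the 21 libraries were found by the root mean square (RMS) difference of log2 CPM after each gene was centred on its own mean, among the 8016 genes that averaged over 3 in log2 CPM. Ccl7 was nearest to Saa3 (RMS difference 0.63, beside an SD of 3.47 for Ccl7 itself) and Il1b (0.85), Ccl2 to Marcks (0.50, SD 1.38) and Bst1 (0.52), and Ccl12 to Mmp14 (0.96, SD 3.87) and Gbp4 (1.13). Ccl4 was nearest to Wfdc17 (0.47, SD 1.54) and Klra2 (0.54), whereas its neighbor Ccl3 was nearest to Cebpd (0.30, SD 0.95) and 5830432E09Rik (0.37). Ccl5 was nearest to Agpat9 (0.91, SD 2.64) and Gbp9 (0.92). Ccl6 and Ccl9 were nearest to Mettl9 (0.16, SD 0.49) and Blvra (0.19), and to Cope (0.11, SD 0.28) and Ssr2 (0.12). No gene came close to Ccl17 or Ccl22, whose smallest differences were 1.798 (Crispld2; next Sntb2, 1.91) and 2.18 (Ier3; next Prnp, 2.28) beside SDs of 2.47 and 3.15.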

How the data were processed

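The authors trimmed paired reads with BBDuk, aligned them to mm10 with BBMap and counted them per gene with featureCounts (1.5.2, with SAMtools 1.8, per the submitters' processing notes) from non-stranded libraries. The annotation and counting settings were not given in the sources used here. The deposited values were raw counts of 23420 gene symbols in 21 libraries. Genes were filtered with filterByExpr (minimum count 10, minimum total 15), normalized by TMM and tested with edgeR 4.0.16 (robust quasi-likelihood, R 4.3.3) on the groups of each comparison, with Benjamini-Hochberg adjustment and a threshold of 0.05. The difference between models was fitted over their 4 groups. DESeq2 1.42.0, other scaling, no filter, all groups in 1 fit, a replicate block and leaving out each library were alternatives. The scripts were tested on simulated data. Libraries held 80772922 to 101043568 counts. Named were all members, the members' receptors, the up to 3 highest and 3 lowest changed genes of the receptor and other CC chemokine lists (mean log2 CPM above 0) and the 2 nearest genes per member. The members and lists were chosen with earlier results of these data known. A receptor gene is not reported here.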

Additional observations from a re-analysis of the deposited data

Results flagged for a closer look

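Of 33 sets of 5 libraries tested for a library far from the others (the 10 members and the ratio of Ccl4 to Ccl3 counts in the 3 TIM groups), 6 held one, where chance gives about 1 in 20. Primary tumor TIM replicate 4 was lowest in Ccl3 (114 CPM), replicate 3 was highest in Ccl12 (38.5 CPM) and replicate 1 had the lowest ratio of Ccl4 to Ccl3 counts (2.41). Lung TIM replicate 3 was highest in Ccl4 (1495 CPM) and Ccl22 (5.66 CPM), and lymph node TIM replicate 1 was highest in Ccl9 (1023 CPM). The latter 2 libraries also stood apart over all genes.

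The change in LN2E1 primary tumor TIMs differed from that in LN4K1 lung TIMs for 4 members in edgeR's test of the difference itself. It was -2.09 for Ccl3 (adjusted p = 0.000369), -1.41 for Ccl6 (adjusted p = 0.00184), 2.64 for Ccl7 (adjusted p = 0.00965) and -0.78 for Ccl9 (adjusted p = 0.0172) on the log2 scale.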

How the results depend on the processing

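Of the members' log2 fold changes under alternatives, 972 kept direction and side of the threshold, 39 were no longer past it, 29 came past it and 18 turned direction, all 18 for values that did not pass in the first place. The 50 mean levels, recomputed with DESeq2 size factors only, moved by less than 1 SD. Member DEGs numbered 3, 2 and 3 in primary tumor, lymph node and lung TIMs. They numbered 8, 6 and 7 in DESeq2 with or without shrinkage, 6 in lymph node and 5 in lung TIMs with all groups in 1 fit, and 3 to 3, 1 to 3 and 0 to 3 without 1 library. With all groups in 1 fit, 1185 of 15357 tested genes were DEGs that rose and 762 DEGs that fell in lymph node TIMs. In lung TIMs that fit had 474 and 323. Members that changed between lymph node and primary tumor TIMs (2) numbered 4 in DESeq2, 1 with all groups in 1 fit and 1 to 2 without 1 library. Over all tested genes, 829 rose and 749 fell of 13488 in edgeR with all libraries. DESeq2 without shrinkage had 1223 and 1867 of 15520, and the fit of all groups 838 and 1359 of 15357. Without 1 library 411 to 1031 genes rose and 478 to 1225 fell. Between lung and primary tumor TIMs the changed members (5) numbered 8 in DESeq2 and 5 to 7 without 1 library. Over all tested genes, 2973 were higher and 2826 lower of 13845 in edgeR with all libraries. DESeq2 without shrinkage had 3156 and 3985 of 16098, and fits without 1 library had 2339 to 3250 higher and 2246 to 3514 lower. Between the marrow groups the changed members (2) numbered 1 with all groups in 1 fit and 0 to 3 without 1 library. Over all tested genes, 1484 were higher and 1235 lower of 12905 in edgeR with all libraries. The fit of all groups had 868 and 727 of 15357, and fits without 1 library had 615 to 2576 higher and 500 to 2252 lower. The causes were not tested.

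Whether replicate numbers pair the libraries cannot be settled with so few libraries. Correlations of same-numbered deviations ran from -0.30 to 0.42, and no comparison had all of them over 0.1. In lymph node TIMs against marrow they were 0.280, 0.081 and 0.297. Libraries correlating best with their own number were 1, 5 and 4 of 6 for primary tumor, lymph node and lung TIMs against marrow. They numbered 2 of 10 for lymph node against primary tumor, 4 of 10 for lung against primary tumor and 0 of 6 for DBA2 against FVB. With the replicate block, 7, 6 and 8 members changed in the 3 comparisons with marrow. Over all tested genes 3360 rose and 2594 fell of 14569, 2125 and 1441 of 13273, and 691 and 633 of 13624. No gene was a DEG there, member or other. With the block, 1 member changed between lymph node and primary tumor TIMs, where 245 of 13488 genes rose and 288 fell. Between lung and primary tumor TIMs 8 members changed, where 2644 of 13845 genes rose and 2792 fell. Ccl17 turned to -3.09 in lymph node TIMs against marrow and -0.47 between the marrow groups.

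Without 1 library, the log2 fold changes that turned direction ranged as follows. In lymph node TIMs against marrow Ccl17 ranged from -1.38 to 0.59. Between lymph node and primary tumor TIMs Ccl7 ranged from -0.41 to 0.20 and Ccl9 from -0.030 to 0.19. Between the marrow groups Ccl2 ranged from -0.012 to 1.43, Ccl12 from -6.46 to 0.29 and Ccl17 from -0.61 to 0.89. In the difference between models Ccl2 ranged from -0.34 to 1.04, Ccl5 from -1.18 to 0.36 and Ccl12 from -5.13 to 1.56. Depth limits Ccl12, Ccl17 and Ccl22 in marrow, where libraries held 0 to 27 of their counts.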
